A study of Homo sapiens with 6 samples.

Results

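The genes described here are those whose transcript level in H2170 cells carrying the disordered-region mutant of ACK1 lay outside the levels of both other groups of cells. Levels are given as CPM, a gene's read count scaled to the library's total count. A gene was taken as above both when the lower IDRmut library was at least 25% higher than the highest of the 4 other libraries. It was taken as below both when the higher IDRmut library was at least 20% lower than the lowest of those 4. Of 61487 gene identifiers, 10906 had a mean of at least 5 CPM over the 6 libraries, and 248 of these met a margin. The 138 genes above both were 1.27% of the 10906, the 110 genes below both were 1.01%, and 10658 genes met neither margin. These genes were chosen by their CPM in IDRmut against the 4 other libraries, so their distance from the other groups is given as a description with no test.

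H2170 is an established line of human lung squamous cell carcinoma. All 6 libraries come from it, with 2 libraries in each of 3 groups: cells with GFP alone (Control), cells with a GFP fusion of unmutated ACK1 (WT), and cells with the GFP fusion of ACK1 mutated in its intrinsically disordered region (IDRmut). All groups therefore express GFP, alone or fused. The labels do not say which residues were changed, how the constructs were delivered, whether a line is a clone or a pool, or whether the libraries of a group were separate cultures, so p-values measure the spread between these libraries, which may be technical.

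ACK1, encoded by TNK2, is a cytoplasmic tyrosine kinase that binds the active form of the small GTPase CDC42 and relays signals from receptor tyrosine kinases such as EGFR and AXL. Intrinsically disordered regions are stretches of protein without a fixed fold, and some drive proteins to gather into condensates. The series asks about ACK1 condensates and STAT5, a transcription factor that moves to the nucleus once a tyrosine kinase has phosphorylated it.

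Library totals were 19128111 to 33540998 reads, with 20346572 and 21922477 in IDRmut. TNK2 read 1764 and 1460 CPM in IDRmut, 3582 and 3683 CPM in WT and 40.2 and 41.9 CPM in Control. Both ACK1 groups stood far above Control, and IDRmut had 0.444 times the mean of WT, so the groups of ACK1 cells differ in transgene level as well as in sequence and the share of each in any result below cannot be told apart. Reads of the transgene and of the native gene are counted together. Among squamous markers KRT14 was 619 to 1394 CPM, SOX2 238 to 343 CPM and TP63 22.2 to 33.2 CPM, while the epithelial adhesion gene EPCAM was at most 0.200 CPM. Markers of immune cells summed to 0.695 to 2.25 CPM in every library, and 7 of the 18 listed were at 0. Other marker lists were higher. The endothelial list, in which CDH5 and KDR reached 5 CPM, summed to 221 and 226 CPM for Control. Its sums were 58.8 and 61.98 CPM for WT, with IDRmut at 111 and 107 CPM. The kidney-line list summed to 46.6 to 73.8 CPM over the libraries, and the neuroendocrine list to 67.8 to 80.9 CPM. The source of these transcripts was not tested.

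The 138 genes above both had a median mean level of 1.77 times Control and 1.59 times WT. For the 110 genes below both, Control was a median of 1.45 times and WT 1.48 times IDRmut. The direction upwards held the wider margins. The lower IDRmut library was at least 1.5 times every other library for 54 genes, at least 2 times for 16 and at least 3 times for 4. On the lower side, 13 genes had a margin of at least 1.5, 2 had at least 2 and none reached 3. The genes above both were also the less abundant set, with a median of 17.3 CPM against 28.0 CPM for those below and 39.96 CPM over all 10906 genes. For 18 of the 138 the 4 Control and WT libraries alone averaged under 5 CPM, so they entered through IDRmut. Only 1 gene above both, HEY1, and 5 below had IDRmut libraries that differed by 25% or more. Protein-coding genes made up 92.8% of the upper and 90.0% of the lower set, against 94.7% of all 10906. Median exonic GC content was 48.8% and 48.5% against 47.3%.

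**Figure D1:**
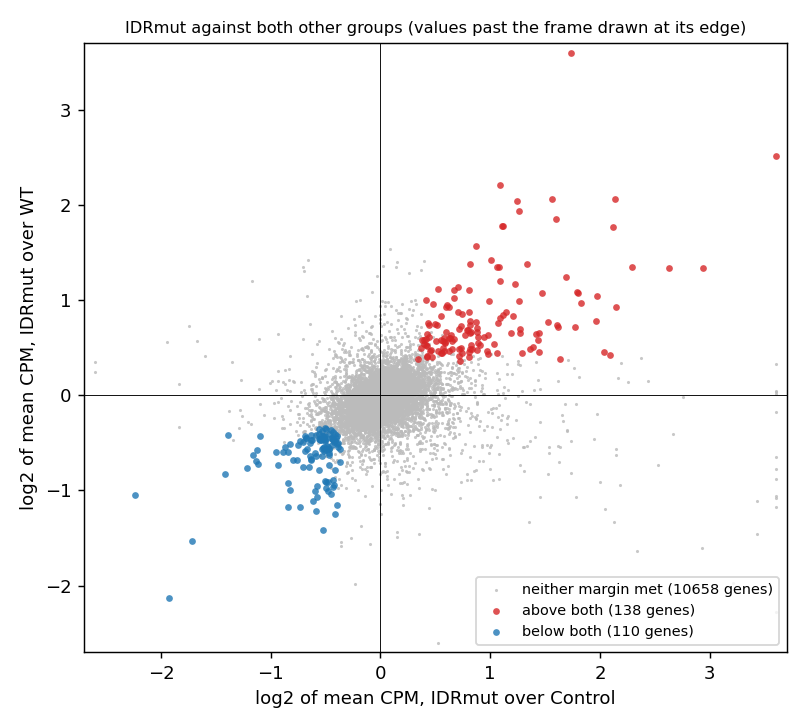
Each point is a gene of at least 5 CPM, placed by the log2 ratio of mean CPM in IDRmut over Control (horizontal) and over WT (vertical), with red for the 138 genes above both and blue for the 110 below both. Values past the frame, such as CXCL14 at 141 times Control, are drawn at its edge, and the red points reach further from 0 than the blue ones.

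Secreted immune signals gave the widest upward margin. On a list of chemokines and cytokines, 5 of the 11 genes of at least 5 CPM lay above both and 1 lay below. CXCL14, a chemokine made by epithelia, read 69.5 and 74.8 CPM in IDRmut, 12.3 and 13.03 CPM in WT and 0.397 and 0.627 CPM in Control. The 3 groups did not overlap, and the IDRmut mean was 141 times Control and 5.70 times WT. The WT step was itself tested, since the choice of genes treated Control and WT alike: it was 4.57 ± 0.19 on the log2 scale (estimate ± standard error, edgeR adjusted p = 7.8e-12). TNFSF10, the death-receptor ligand TRAIL, had the same order of groups, with 14.01 and 15.4 CPM in IDRmut, 7.04 and 7.19 CPM in WT and 3.18 and 4.29 CPM in Control. CX3CL1, a chemokine tethered to the membrane, was 52.9 and 46.4 CPM in IDRmut and 21.7 to 28.3 CPM in the 4 others. CCL2, which attracts monocytes, was 94.1 and 101 CPM in IDRmut against 59.3 to 60.3 CPM in Control and 52.7 to 54.3 CPM in WT. For CCL2 it was WT that lay lowest (-0.22 ± 0.05, edgeR adjusted p = 0.0031), so these genes did not share the position of WT. CSF1, the growth factor of macrophages, reached 42.3 and 36.5 CPM in IDRmut, and its other libraries lay between 17.8 and 23.7 CPM. The list's gene below both was TNFSF4, the ligand of the T-cell receptor OX40, at 8.99 and 9.44 CPM in IDRmut, 12.999 and 14.6 CPM in Control and 21.9 and 20.8 CPM in WT. In bulk libraries, fewer cells with a transcript and less of it per cell cannot be told apart.

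Extracellular matrix genes were the other large group above both: 6 of 41 on the matrix list, with 1 below, plus 2 of 17 collagens and 2 of 26 proteases and inhibitors, neither with a gene below. PI15, a secreted protease inhibitor, was 84.2 and 86.9 CPM in IDRmut and 19.2 to 21.4 CPM elsewhere. BGN, the small proteoglycan biglycan, was 10.3 and 9.94 CPM in IDRmut and 2.09 to 3.04 CPM elsewhere. For both genes WT and Control were not called different, so only the IDRmut libraries stood apart. SPARCL1, a matrix glycoprotein, behaved otherwise: 15.2 and 15.2 CPM in IDRmut, 4.32 and 4.81 CPM in Control, and 0.399 and 0.417 CPM in WT. SPARCL1 is among the 18 genes that would have missed the 5 CPM minimum without IDRmut, as are BGN and CA9. WT minus Control was -3.52 ± 0.22 (log2, edgeR adjusted p = 1.5e-09), and IDRmut was 3.33 times Control and 37.3 times WT. ABI3BP, a matrix-binding protein, was 19.4 and 20.03 CPM in IDRmut against 4.99 to 6.85 CPM in the others. LOX, the enzyme that cross-links collagen and elastin, was 54.4 and 57.9 CPM against 23.01 to 27.3 CPM. For both genes WT and Control were not called different. Smaller margins belonged to THBS3 (thrombospondin 3, 1.82), SRPX2 (1.35), HSPG2 (the basement membrane proteoglycan perlecan, 1.30), COL11A1 (1.46), COL14A1 (1.43) and TIMP3 (an inhibitor of metalloproteinases, 1.30). Exons of other genes cover 25.4% of the exonic bases of THBS3, so reads of a neighbour may be included. COL14A1 again had WT lowest, at 210 and 210 CPM, with 316 and 319 CPM in Control and 455 and 459 CPM in IDRmut. TIMP3 had WT in the middle, at 235 and 244 CPM between 156 and 156 CPM in Control and 334 and 317 CPM in IDRmut. NID2, the basement membrane linker nidogen 2, was the matrix gene below both, at 7.81 and 7.71 CPM against 11.7 to 14.9 CPM. A list of 13 fibroblast markers, 3 of which reached 5 CPM (COL1A2, PDGFRA and THY1), summed to 992 and 933 CPM in IDRmut, 868 and 886 CPM in Control and 724 and 735 CPM in WT, with TCF21 at 0. THY1 is itself above both, and the part of these cells or transcripts in the matrix values was not tested.

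Genes of a hypoxia and glycolysis list were on the upper side and not on the lower, and genes off the list were not searched for a role in hypoxia. The hypoxia and glycolysis list had 6 of 48 genes above both and none below: CA9, CA12, VEGFA, EGLN3, ALDOC and LOX. CA9 is among the 18 genes that would have missed the 5 CPM minimum without IDRmut. Both the 6 and the 48 thus include a gene admitted that way. CA9 and CA12, carbonic anhydrases of the cell surface that help control pH, are classical targets of hypoxia-inducible factors, and EGLN3 is an oxygen-sensing hydroxylase that these factors induce. CA9 (GRCh38, chr9:35673856-35681159, plus strand) read 14.5 and 14.6 CPM in IDRmut, 5.01 and 4.81 CPM in Control and 3.39 and 3.58 CPM in WT. ALDOC, a glycolytic aldolase, read 25.2 and 23.3 CPM in IDRmut and 8.14 to 10.4 CPM elsewhere. VEGFA, the endothelial growth factor, read 102 and 99.9 CPM in IDRmut, 75.1 and 76.0 CPM in Control and 62.2 and 67.4 CPM in WT. IDRmut was highest for each by the choice of genes, and WT was lower than Control for CA9 (-0.55 ± 0.14, edgeR adjusted p = 0.0043), VEGFA (-0.28 ± 0.05, adjusted p = 0.00031) and EGLN3 (-0.39 ± 0.08, adjusted p = 0.0016). CA12 went the other way, with WT above Control by 0.66 ± 0.13 (edgeR adjusted p = 0.00056). Exons of other genes cover 38.5% of the exonic bases of CA9. Strand use in counting is not given in the sources used here, so reads of such a neighbour may be included.

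Without the 6 genes above both, 43 genes of the hypoxia list remained in the edgeR fit over 16591 genes. Of these, 13 were called higher and 10 lower in IDRmut than in Control (median 0.01, log2), where 15.6% and 15.9% of all genes were called. Against WT, 16 were called higher and 3 lower (median 0.08), beside 12.3% and 14.2% of all genes. WT itself had 6 called higher and 17 lower than Control (median -0.05), beside 17.4% and 17.6%. The WT libraries are shared by the last comparisons, and Control by the first and last. SLC2A1, the glucose transporter GLUT1, was 585 and 560 CPM in IDRmut and 571 to 648 CPM elsewhere. LDHA, lactate dehydrogenase A, was 32.9 and 34.1 CPM in IDRmut and 36.2 to 45.1 CPM elsewhere. NDRG1, another hypoxia-induced gene, was 192 and 181 CPM in IDRmut, 158 and 167 CPM in Control and 97.5 and 94.6 CPM in WT. HK2, hexokinase 2, was 62.6 and 64.6 CPM in IDRmut and 35.5 to 53.9 CPM elsewhere, and the glycolytic kinase PGK1 was 975 and 1045 CPM against 817 to 917 CPM. NDRG1, HK2 and PGK1 were thus highest in IDRmut but short of the margin, while SLC2A1 and LDHA were not. These 5 genes were picked after their values were seen.

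The promoters of CA9 and ALDOC are shown because these genes had the widest margins of the hypoxia list. Each line holds 300 bases that include the first RefSeq start (GRCh38.p14), read on the gene's strand, and capitals mark the core that hypoxia-inducible factors bind, ACGTG or its reverse complement CACGT, with overlapping matches joined. CA9 (chr9:35673678-35673977, plus) holds 1 match, 18 bases before the start, and ALDOC (chr17:28576846-28577145, minus) holds 3. The promoter of LOX, not shown, holds 4, those of CA12 and EGLN3 hold none, and VEGFA had no promoter to search.
CA9: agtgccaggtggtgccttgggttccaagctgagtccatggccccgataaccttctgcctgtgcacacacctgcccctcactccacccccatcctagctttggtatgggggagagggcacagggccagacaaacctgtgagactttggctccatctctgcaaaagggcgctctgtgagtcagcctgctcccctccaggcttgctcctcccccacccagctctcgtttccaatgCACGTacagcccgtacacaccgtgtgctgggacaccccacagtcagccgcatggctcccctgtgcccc
ALDOC: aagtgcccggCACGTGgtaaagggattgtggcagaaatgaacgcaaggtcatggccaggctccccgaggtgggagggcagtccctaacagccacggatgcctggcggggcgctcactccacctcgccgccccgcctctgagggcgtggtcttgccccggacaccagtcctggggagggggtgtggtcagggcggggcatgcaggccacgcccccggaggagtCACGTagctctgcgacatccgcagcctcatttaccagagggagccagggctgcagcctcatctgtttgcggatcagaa
A match is no more than these letters. Of 96 upper genes with a promoter in the table, 22.9% held the core on either strand, against 19.3% of 83 lower genes, 27.6% of 8745 promoters of genes of at least 5 CPM and 21.6% of all 27305.

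Keratins and squamous adhesion genes formed the next group, with 5 of 24 above both and 1 below. KRT5, the basal-cell keratin, read 29.5 and 28.5 CPM in IDRmut, 14.3 and 12.4 CPM in Control and 8.09 and 8.85 CPM in WT. KRT6A, a keratin of stressed and healing epithelium, read 100.2 and 94.0 CPM in IDRmut, 44.9 and 47.2 CPM in WT and 27.9 and 27.9 CPM in Control. KRT8, a keratin of simple epithelium, read 76.1 and 69.1 CPM in IDRmut, 29.3 and 28.1 CPM in WT and 12.4 and 11.03 CPM in Control. The 3 keratins were highest in IDRmut by the choice of genes, but WT was below Control for KRT5 (-0.71 ± 0.10, edgeR adjusted p = 2.4e-05) and above it for KRT6A (0.66 ± 0.06, adjusted p = 1.8e-07) and KRT8 (1.22 ± 0.08, adjusted p = 4.8e-09). KRT6B and KRT6C, the close paralogs of KRT6A, were each at most 0.0596 CPM. FAT2, a giant cadherin of squamous epithelium, was 17.1 and 15.7 CPM in IDRmut, 7.74 and 7.69 CPM in Control and 3.74 and 3.31 CPM in WT. DSP, the desmosome linker desmoplakin, was 83.1 and 83.2 CPM in IDRmut, 61.7 and 60.9 CPM in WT and 49.6 and 49.9 CPM in Control. SFN, the epithelial 14-3-3 protein, had a margin of 1.42. JUP, the junction protein plakoglobin, lay below both, at 64.7 and 59.0 CPM against 81.6 to 86.2 CPM, so members of the desmosome went to opposite sides. KRT14 met no margin: its 994 and 890 CPM in IDRmut lay between 1383 and 1394 CPM in Control and 648 and 619 CPM in WT. KRT18 and KRT17 met none either, so the keratins did not rise as a whole. KRT18 in IDRmut, at 7.81 and 6.39 CPM, lay under WT (10.5 and 11.4 CPM) and over Control (1.49 and 1.73 CPM). Its IDRmut minus WT difference was -0.61 ± 0.11 (log2, edgeR adjusted p = 0.00066). KRT17 in IDRmut, at 32.3 and 28.6 CPM, overlapped Control (26.2 and 28.9 CPM), with WT at 11.9 and 12.045 CPM. EHF, an epithelial transcription factor, was above both at 202 and 205 CPM, against 144 and 147 CPM in WT and 113 to 117 CPM in Control.

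**Figure D2:**
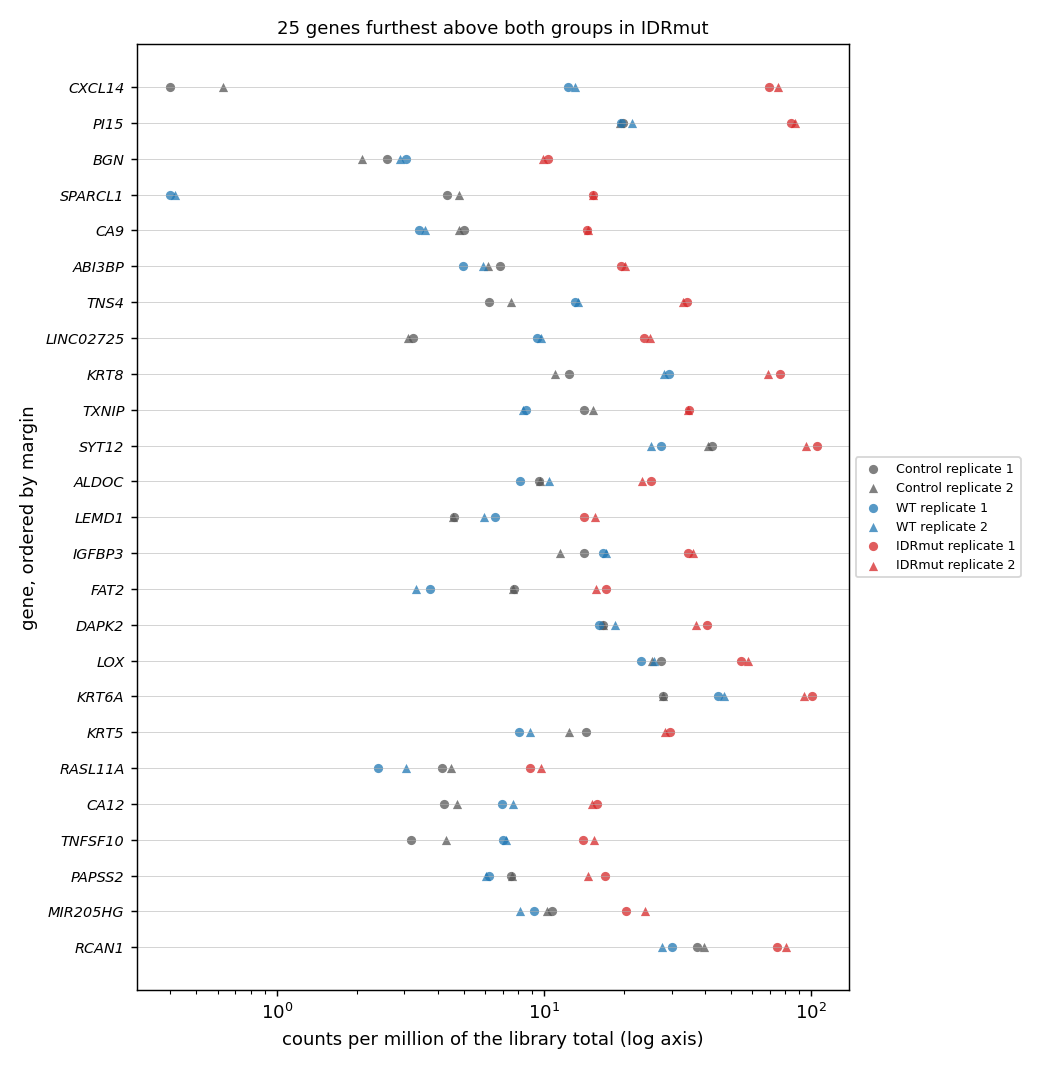
CPM (log axis) of the 25 genes with the widest margin above both, with circles and triangles for the 2 libraries of Control (grey), WT (blue) and IDRmut (red). Red points lie to the right in every row because the rule requires it. Blue lies left of grey for SPARCL1, CA9, TXNIP, FAT2 and KRT5 and right of it for CXCL14, TNS4 and KRT8.

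Signalling genes above both included several that restrain or receive Wnt signals. The Wnt list had 4 of 30 genes above both and 1 below. LGR5, the R-spondin receptor of stem cells, was 17.4 and 18.9 CPM in IDRmut, 10.5 and 8.47 CPM in WT and 4.12 and 4.08 CPM in Control. FZD7, a Wnt receptor, was 83.7 and 79.4 CPM in IDRmut and 46.8 to 59.8 CPM elsewhere. SFRP1, a secreted Wnt antagonist, was 115 and 119 CPM in IDRmut and 62.2 to 77.6 CPM elsewhere. AXIN2, a feedback inhibitor and common Wnt target, was 6.88 and 6.29 CPM against 4.09 to 4.37 CPM, and 25.2% of its exonic bases overlap other genes. FZD4, a second receptor, lay on the other side at 14.7 and 13.5 CPM against 20.4 to 22.5 CPM. The receptors thus divided between the directions, and the list's other 25 genes met no margin. From the Notch list, the target HEY1 and the ligase DTX4 were above both, while the ligand JAG1 and HES2 were below both, out of 12 genes. HEY1, DTX4 and the Wnt gene AXIN2 are among the 18 genes that would have missed the 5 CPM minimum without IDRmut. The upper counts of both lists thus include genes admitted that way. JAG1 was at 204 and 197 CPM in IDRmut, with 264 to 303 CPM in the other libraries.

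Transcripts of STAT3 and MYC were above both by narrow margins. STAT3, the paralog of the study's STAT5, read 386 and 397 CPM in IDRmut and 290 to 299 CPM in the 4 others, a margin of 1.29. MYC, the growth-promoting transcription factor, read 156 and 145 CPM in IDRmut and 98.7 to 104 CPM elsewhere, a margin of 1.39. WT was not called different from Control for either gene, so only the IDRmut libraries stood apart. MYC and CSF1 were the 2 of 18 genes on a STAT5 target list above both, and none was below. The list as a whole went both ways. Of its 21 tested genes, MYC and CSF1 included, 6 were called higher and 6 lower in IDRmut than in Control (median 0.05, log2). Against WT, 5 were called higher and 6 lower (median -0.01). STAT5A was 6.09 and 5.79 CPM in IDRmut within 4.50 to 7.34 CPM over the other libraries, and STAT5B was 51.2 and 54.0 CPM against 44.8 to 51.7 CPM. SOCS5, a cytokine-signalling suppressor named after its values were seen, was 126 and 125 CPM in IDRmut, 86.5 and 88.2 CPM in WT and 72.5 and 69.8 CPM in Control. The STAT-binding letters TTCNNNGAA stood in 4.17% of the upper and 6.02% of the lower promoters, against 6.22% for genes of at least 5 CPM and 7.88% of all promoters.

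Further genes high in the upper ranking had diverse roles. TXNIP, an inhibitor of thioredoxin and of glucose uptake, read 34.8 and 34.6 CPM in IDRmut, 14.1 and 15.3 CPM in Control and 8.54 and 8.35 CPM in WT. TNS4, a tensin at focal adhesions, read 34.3 and 33.1 CPM in IDRmut, 13.03 and 13.4 CPM in WT and 6.202 and 7.53 CPM in Control. SYT12, a synaptotagmin, read 105 and 95.8 CPM in IDRmut, 42.6 and 41.1 CPM in Control and 27.3 and 25.1 CPM in WT. TXNIP and SYT12 had WT below Control and TNS4 had it above, each by call. IGFBP3, which binds insulin-like growth factors, was 34.7 and 36.2 CPM against 11.5 to 17.1 CPM. RCAN1, a regulator of calcineurin, was 74.7 and 80.2 CPM against 27.6 to 39.6 CPM. DAPK2, a death-associated kinase, was 40.9 and 37.0 CPM against 16.1 to 18.4 CPM. For all 3 the choice of genes requires the IDRmut libraries to be the highest. The remaining genes among the first 25 were LINC02725, LEMD1, RASL11A, PAPSS2 (which makes the sulfate donor) and MIR205HG (the host transcript of a squamous microRNA), with margins of 1.90 to 2.43. Exons of other genes cover 31.4% of the exonic bases of LEMD1, so reads of a neighbour may be included. HLA-B, a class I antigen-presenting molecule, was 222 and 214 CPM in IDRmut, 163 and 163 CPM in WT and 50.9 and 51.7 CPM in Control. It was the only gene of the antigen presentation list outside both, and most of its distance from Control was already present in WT (1.60 ± 0.04, edgeR adjusted p = 5.3e-14).

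Transporters of small molecules were found on both sides. SLC5A3, which imports myo-inositol, was 601 and 619 CPM in IDRmut and 331 to 352 CPM elsewhere. SLC6A6, the taurine transporter, was 404 and 410 CPM in IDRmut, 307 and 303 CPM in Control and 204 and 203 CPM in WT. SLC1A3, a glutamate transporter, was 115 and 117 CPM in IDRmut, 68.9 and 66.2 CPM in WT and 27.5 and 32.1 CPM in Control. WT was lowest for SLC6A6 and intermediate for SLC1A3. SLC6A11 and SLC16A9 were below both with margins of 1.38 and 1.39, so the list of 23 gave 3 above and 2 below. MT-RNR1, the mitochondrial small ribosomal RNA, was 509 and 576 CPM in IDRmut and 348 to 363 CPM elsewhere. The large ribosomal RNA MT-RNR2 met no margin, at 8199 and 9149 CPM against 7260 and 7551 CPM in Control and 5204 and 5046 CPM in WT. The 15 mitochondrially encoded genes summed to 50348 and 54521 CPM in IDRmut, 46732 and 49751 CPM in Control and 43018 and 41328 CPM in WT. Both ribosomal RNAs lack long poly-A tails and the libraries were poly-A selected, and the part of RNA handling in these values was not tested.

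The 110 genes below both were led by a prostaglandin enzyme. PTGES (GRCh38, chr9:129738331-129753047, minus strand), the inducible prostaglandin E synthase, read 34.0 and 30.8 CPM in IDRmut, 93.2 and 94.6 CPM in WT and 104 and 110 CPM in Control. Both IDRmut libraries were far under the 4 others, Control being 3.30 times and WT 2.90 times IDRmut. PTGER4, a receptor for the same prostaglandin, was also below both, at 3.44 and 3.33 CPM in IDRmut, 4.42 and 4.50 CPM in Control and 7.74 and 7.30 CPM in WT. DAB1, an adaptor of reelin signalling, read 3.44 and 4.20 CPM in IDRmut, 8.24 and 7.54 CPM in WT and 17.3 and 18.6 CPM in Control, so its levels formed 3 separate steps. PREX1, an exchange factor for the GTPase Rac, was 8.65 and 9.21 CPM against 15.8 to 17.3 CPM. RYR3, an intracellular calcium channel, was 13.5 and 15.3 CPM against 23.9 to 35.0 CPM. LHX1, a developmental homeobox factor on the list of kidney-line markers, was 7.23 and 5.47 CPM against 11.3 to 14.6 CPM. That no library of another group reached the IDRmut range follows from the choice of genes.

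**Figure D3:**
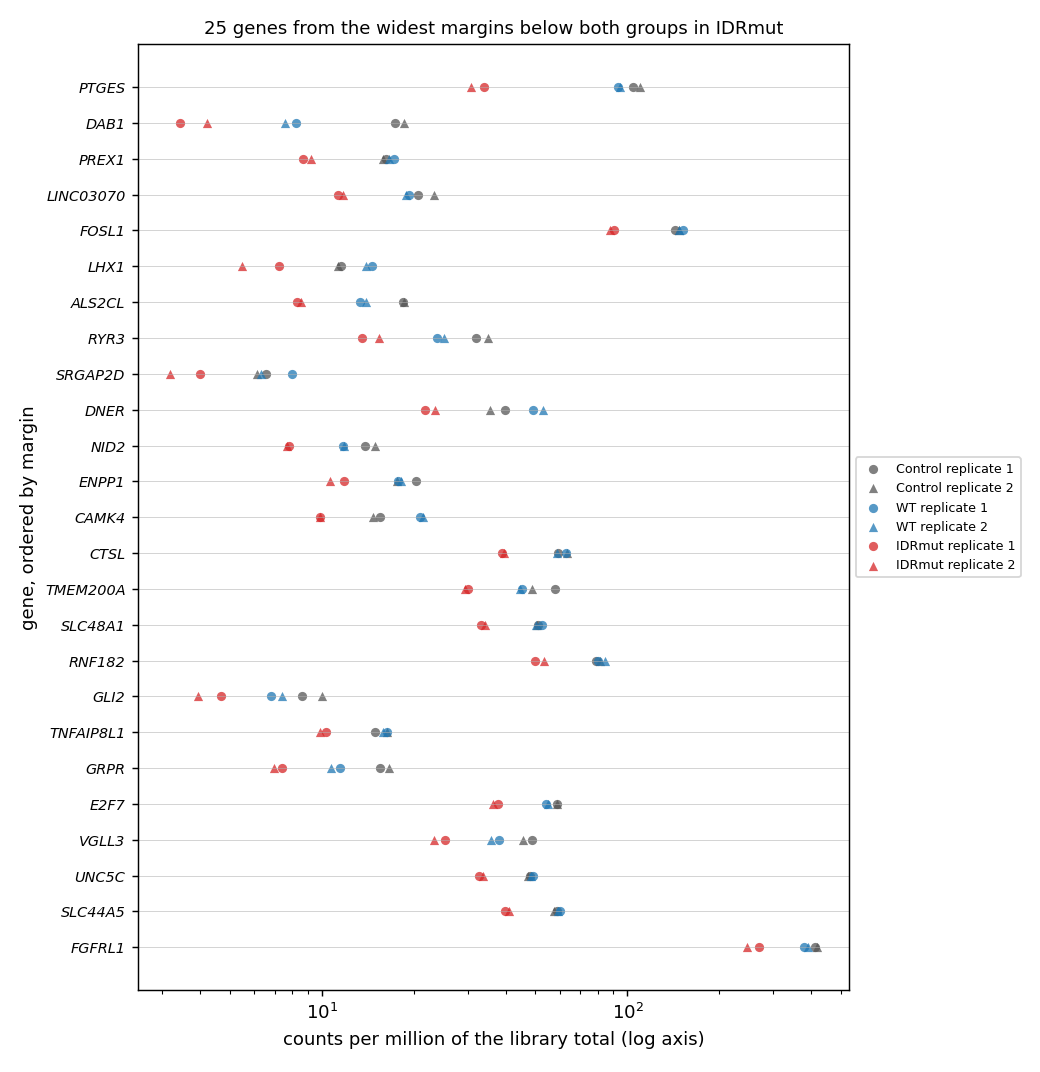
CPM (log axis) of 25 genes from the widest margins below both, drawn as for the upper set. Red points lie to the left in every row because the rule requires it. The gap is widest for PTGES, and most other rows show gaps of 1.40 to 1.80 times.

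The DNA replication list had 4 of 68 genes below both and the mitosis list 2 of 67, and neither list had a gene above both. Off the lists, E2F5, another E2F factor, was above both at 17.7 and 17.6 CPM against 11.9 to 14.01 CPM and is named after its values were seen. RRM2, the regulated subunit of ribonucleotide reductase (GRCh38, chr2:10120698-10131419, plus strand), read 457 and 463 CPM in IDRmut, 637 and 617 CPM in Control and 627 and 629 CPM in WT. TYMS and TK1, which make thymidylate, read 77.4 and 76.0 CPM against 102 to 111 CPM and 118 and 111 CPM against 151 to 160 CPM, respectively. E2F7, a repressor of the E2F family, read 37.6 and 36.3 CPM against 54.0 to 58.9 CPM. All 4 genes were lowest in IDRmut by the choice of genes. WT was called different from Control for TYMS and E2F7, though not in every alternative fit, and was not called different for RRM2 and TK1. FOXM1, a transcription factor of late cell-cycle genes, was 107 and 104 CPM in IDRmut, 135 and 137 CPM in Control and 156 and 155 CPM in WT. MYBL2, its partner on those genes, was 82.3 and 76.0 CPM in IDRmut, 106 and 107 CPM in WT and 126 and 128 CPM in Control. Exons of other genes overlap 46.6% of the exonic bases of TYMS and 20.2% of those of RRM2. Further division genes off the lists, named after their values were seen, were CIT (citron kinase of cytokinesis), KIFC1 (a minus-end mitotic motor), CEP55 (an organiser of abscission) and SPC24 (a kinetochore subunit). KIFC1 was 93.1 and 93.8 CPM against 121 to 128 CPM, and CEP55 was 174 and 184 CPM against 233 to 242 CPM.

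Most other genes of these lists lay lower in IDRmut by less than the margin. Of 67 mitosis genes that met no margin, edgeR called 50 lower and 1 higher against Control (median -0.23, log2) and 57 lower and 1 higher against WT (median -0.27), beside the 15.9% and 14.2% of all genes called lower. Of 64 such replication genes, 55 were called lower and 0 higher against Control (median -0.28) and 29 lower and 0 higher against WT (median -0.11). Both comparisons share the IDRmut libraries. For WT against Control, 45 of these replication genes were called lower and 2 higher, and 10 of the mitosis genes lower and 17 higher, where 17.6% and 17.4% of all genes were called lower and higher.

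The promoters of KIFC1 and CEP55 are shown because they hold the cell cycle homology region letters, and they were picked for that. Capitals mark these letters, TTTGAA or the reverse complement TTCAAA, which a repressor complex of resting cells binds at late cell-cycle genes. KIFC1 (chr6:33391573-33391872, plus) holds 1 match, 5 bases after the start, and CEP55 (chr10:93496362-93496661, plus) holds 2.
KIFC1: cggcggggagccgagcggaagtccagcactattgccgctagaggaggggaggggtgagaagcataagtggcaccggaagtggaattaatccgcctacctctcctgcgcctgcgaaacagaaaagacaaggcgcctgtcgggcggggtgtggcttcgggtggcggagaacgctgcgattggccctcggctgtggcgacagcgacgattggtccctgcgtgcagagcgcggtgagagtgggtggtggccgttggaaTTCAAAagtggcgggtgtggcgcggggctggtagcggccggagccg
CEP55: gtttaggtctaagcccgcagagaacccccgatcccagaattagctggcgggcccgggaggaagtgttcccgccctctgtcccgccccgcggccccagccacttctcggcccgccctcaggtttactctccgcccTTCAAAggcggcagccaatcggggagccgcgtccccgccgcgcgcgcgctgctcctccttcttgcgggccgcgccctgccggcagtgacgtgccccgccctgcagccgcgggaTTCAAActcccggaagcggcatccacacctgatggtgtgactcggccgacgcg
Of the other division genes named above, CIT held 2 matches, and RRM2, TYMS, TK1, E2F7, MYBL2 and SPC24 held none. The letters stood in 13.3% of lower, 9.38% of upper and 9.61% of promoters of genes of at least 5 CPM, and in 15.4% of all promoters. The E2F letters TTTGGCGC or TTTCCCGC stood in 2.41% of lower promoters and 0% of upper ones, against 4.01% for genes of at least 5 CPM. The AP-1 letters TGACTCA stood in 2.41% of lower and 6.25% of upper promoters, against 2.84%.

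**Figure D4:**
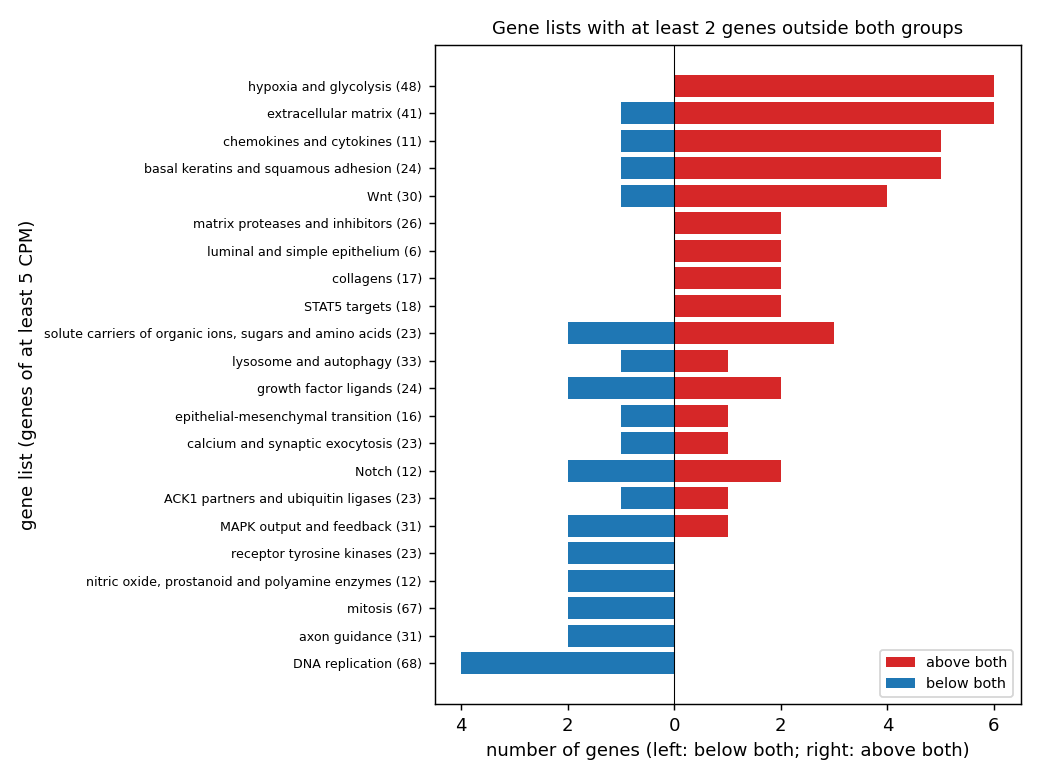
Number of genes above both (red, right) and below both (blue, left) for the 22 gene lists with at least 2 such genes, with the number of genes of at least 5 CPM in brackets. Hypoxia and glycolysis and extracellular matrix reach 6 above, and DNA replication reaches 4 below with none above.

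Genes of growth signalling were found on both sides. The MAP kinase output list of 31 genes had FOSL1 and DUSP10 below both and MYC above both, and the 24 growth factor ligands gave 2 in each direction. AXL, a receptor tyrosine kinase known to signal through ACK1, read 206 and 191 CPM in IDRmut, 282 and 282 CPM in Control and 369 and 375 CPM in WT. EPHB2, an ephrin receptor, read 52.2 and 46.1 CPM in IDRmut, 70.6 and 70.4 CPM in WT and 82.7 and 83.1 CPM in Control. They were the 2 of 23 receptor tyrosine kinases below both, none was above, and WT lay on opposite sides of Control for them (0.33 ± 0.04 for AXL, edgeR adjusted p = 3e-06, and -0.30 ± 0.05 for EPHB2, adjusted p = 0.00026). FOSL1, a subunit of the factor AP-1 induced by MAP kinases, was 90.3 and 87.8 CPM in IDRmut and 143 to 151 CPM elsewhere. DUSP10, a phosphatase of stress-activated MAP kinases, was 14.1 and 14.9 CPM in IDRmut, 19.3 and 19.4 CPM in Control and 33.9 and 34.8 CPM in WT. The neighbouring transcript LINC02474 had the same order, at 21.8 and 22.9 CPM, 32.4 and 32.0 CPM, and 59.8 and 59.8 CPM in IDRmut, Control and WT. ID2, an inhibitor of basic helix-loop-helix factors, was 86.5 and 89.0 CPM in IDRmut, 118 and 118 CPM in Control and 172 and 166 CPM in WT. ZEB2, a repressor linked to epithelial-mesenchymal transition, was 10.2 and 11.2 CPM against 14.9 to 21.6 CPM. IDRmut was lowest for each, as the choice of genes requires.

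Other genes of the lower side belonged to several lists with 1 or 2 each. CTSL, a lysosomal protease, was 38.8 and 39.5 CPM against 58.9 to 63.4 CPM, whereas its close relative CTSV lay above both at 21.8 and 21.8 CPM against 9.93 to 12.2 CPM. GLI2, a hedgehog effector, was 4.67 and 3.92 CPM against 6.79 to 10.0 CPM. Growth factors NRG2 (a neuregulin) and FGF12 were below both with margins of 1.39 each, while VEGFA and the binding protein IGFBP3 on the same list were above. UNC5C, a netrin receptor, had a margin of 1.41, STX1A, a syntaxin of vesicle fusion, 1.31, and KCNMA1, a calcium-activated potassium channel, 1.27. The lower ranking also held DNER, ENPP1, CAMK4, TMEM200A, SLC48A1, RNF182, TNFAIP8L1, ALS2CL, GRPR, VGLL3 and LINC03070, with margins of 1.42 to 1.61. SRGAP2C and SRGAP2D, near-identical partial copies of SRGAP2, were both below both. SRGAP2D was 3.98 and 3.19 CPM against 6.12 to 7.99 CPM, and SRGAP2 itself met no margin at 33.3 and 34.5 CPM against 38.9 to 46.3 CPM. Reads may have been divided among these copies, so their values are uncertain.

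The position of WT divided both sets. Among the 138 genes above both, edgeR called WT above Control for 45 (32.6%, median 0.66 on the log2 scale), below Control for 36 (26.1%, median -0.39) and not different for 57. Among all 10906 genes the shares were 17.9% above and 24.0% below. Over the 110 genes below both, WT was called below Control for 41 (37.3%, median -0.28), above for 21 (19.1%, median 0.42) and not different for 48. DESeq2 called 26 in place of those 41. All 248 genes passed the low-count filter of that fit. Some genes would have missed the 5 CPM minimum with the higher of WT and Control set to the other's level. They were 5 of the 45, 2 of the 36, 1 of the 41 and 1 of the 21. DTX4, C1orf116, RASL11A, SLC6A11 and PTGER4 were among them. DTX4, C1orf116 and RASL11A are also among the 18 upper genes that would have missed it without IDRmut. The rule used the extremes of these 4 libraries, so a gene with a wide WT step needed a wider IDRmut distance on that side to enter. IDRmut thus went further in the direction of WT for 45 upper and 41 lower genes. It went past Control on the side away from WT for 36 and 21. The rule itself puts IDRmut past both groups. The shares of these 36 and 21, 26.1% and 19.1%, were near the 24.0% and 17.9% of all 10906 genes.

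Genes above both in which WT was also above Control were led by CXCL14, HLA-B, LINC02725, DTX4, KRT8, DNM1, LGR5, SLC1A3, C1orf116 and IGFL4, with WT differences of 4.57 down to 0.92. Those in which WT lay below Control were led by SPARCL1, FAT2, TXNIP, PTK2B, SYT12, KRT5, RASL11A, COL14A1, SLC6A6 and LBH, from -3.52 to -0.63. DTX4, C1orf116 and RASL11A needed both IDRmut and the higher of WT and Control to reach the 5 CPM minimum. Their places in these rankings are thus a description with no test. PTK2B, a kinase related to focal adhesion kinase, read 12.7 and 11.2 CPM in IDRmut, 6.80 and 6.27 CPM in Control and 3.79 and 4.23 CPM in WT. On the lower side the widest WT drops were in DAB1 (-1.26 ± 0.10, edgeR adjusted p = 2.5e-08), MAB21L1 (-1.03 ± 0.08, adjusted p = 4.5e-08) and PGBD5 (-0.73 ± 0.06, adjusted p = 6.5e-08). STS, which removes sulfate from steroids, followed at 10.96 and 13.1 CPM in IDRmut, 18.02 and 17.7 CPM in WT and 25.3 and 27.1 CPM in Control. The widest WT rises there were in LINC02474 (0.83 ± 0.05, edgeR adjusted p = 2.7e-09), DUSP10 (0.77 ± 0.07, adjusted p = 1.1e-07) and TNFSF4 (0.56 ± 0.08, adjusted p = 5.2e-05). PTGER4 lay between DUSP10 and TNFSF4 at 0.68, given with no test because it reached the 5 CPM minimum only through its WT level. ANK1, ID2, ABLIM3, CAMK4 and RNF144A came next, at 0.47 to 0.43. HMGA1, a chromatin protein, and SULF2, a sulfatase that trims heparan sulfate, had the same order and were picked after their values were seen: HMGA1 was 145 and 135 CPM in IDRmut, 192 and 203 CPM in Control and 263 and 263 CPM in WT.

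**Figure D5:**
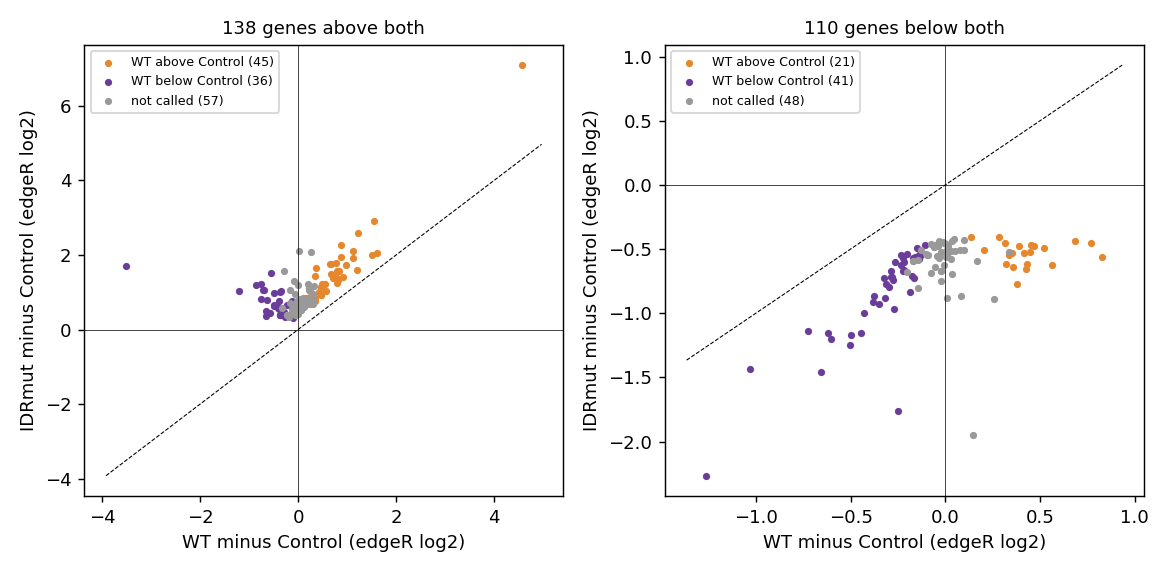
edgeR log2 difference of WT minus Control (horizontal) and IDRmut minus Control (vertical) for the 138 genes above both (left) and the 110 below both (right), with colour for the WT call and a dashed line where the axes are equal. Every point lies above the dashed line on the left panel and below it on the right because the rule requires it, while the spread along the horizontal axis, from -3.52 to 4.57 on the left, has a sign that the rule does not set.

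Of the 59 gene lists, 41 had at least 1 gene outside both and 18 had none. The interferon response list had none in 51 genes of at least 5 CPM. Of its 60 tested genes, 55 were called higher in WT than in Control (median 1.56, log2), beside 17.4% of all genes. In IDRmut, 54 were called higher and 0 lower than in Control (median 1.13), beside 15.6% and 15.9%. Against WT, 2 were called higher and 40 lower in IDRmut (median -0.43), beside 12.3% and 14.2%. Lists of this size can lack such genes at the overall shares of 1.27% and 1.01%. No gene of the lists for ribosomal proteins (77 genes), the integrated stress response (36), NRF2 targets (29), p53 targets (24), heat shock (20) or the unfolded protein response (20) met a margin.

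By position, chromosome 8 held 12 upper genes among 375 of at least 5 CPM (3.20%) and chromosome 21 held 3 of 96 (3.13%), beside 1.27% over all chromosomes. Chromosome 18 held 4 lower genes among 148 (2.70%) and chromosome X held 8 among 398 (2.01%), beside 1.01% over all. Chromosome 20 had no upper gene, and chromosomes 16, 21 and the mitochondrial one had no lower gene. Among genes of at least 5 CPM in chromosome order, 6 pairs of direct neighbours were above both, 6 pairs were below both and 0 pairs had opposite directions. The upper pairs were KRT6A with KRT5, KLHDC8A with LEMD1, METTL7B with ITGA7, GJB2 with CRYL1, MRPS6 with SLC5A3 and SLC5A3 with RCAN1. Lower pairs included DUSP10 with LINC02474, RNF144A with ID2, SULF2 with PREX1, ACOT7 with HES2, and the copies SRGAP2C and SRGAP2D. Because genes under 5 CPM are left out of the order, some pairs are far apart. The gap is 22582265 bases for SRGAP2C and SRGAP2D and 1610559 bases for RNF144A and ID2. Whether such pairs are more frequent than the overall shares give was not tested. MRPS6 and SLC5A3, and METTL7B and ITGA7, overlap on the genome, so reads may be shared between them. The 3 upper genes of chromosome 21 are MRPS6, SLC5A3 and RCAN1, so its share rests on these neighbours. MRPS6, a mitochondrial ribosomal protein gene that contains SLC5A3 within its span, was 75.4 and 79.4 CPM in IDRmut and 43.6 to 49.3 CPM elsewhere. The pairs are named for their place, and several members were picked after their values were seen.

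The margins cut through a continuous range of genes. Just inside the upper margin lay SCGB3A2 (1.2526) and CLSTN3 (1.2558), and just outside lay SAT1 (1.2497) and KCNAB2 (1.2496), as ratios of the lower IDRmut library to the highest other. At the lower margin, RELL1 (0.7996) and HES2 (0.7984) were just inside, and SNX24 (0.8011) was just outside.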

How the data were processed

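RNA of 6 H2170 libraries was poly-A selected and sequenced, per the labels' protocols. The authors deposited whole-number read counts per gene, not normalized. The submitters' processing notes name HISAT2 2.2.1, SAMtools 1.14, featureCounts 2.0.1 and GRCh38, and the annotation release, strand setting and handling of multiply mapped reads were not given in the sources used here. Symbols were found for 61369 of the 61487 identifiers, and positions for 247 of the 248 genes came from GENCODE 29 (GRCh38).

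CPM used each library's total count of 19128111 to 33540998 reads. Differences were fitted on the counts with edgeR 4.0.16 (R 4.3.3, TMM scaling, filterByExpr with a minimum count of 10 and total of 15, quasi-likelihood test) in 1 fit of all 6 libraries with 3 contrasts over 16591 genes. P-values were Benjamini-Hochberg adjusted over those genes, with calls at 0.05. The fit had 3 residual degrees of freedom. The script was tested on simulated counts.

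The genes and the 59 gene lists were chosen with earlier results of these data known. Named genes are TNK2, the 25 widest margins in each direction, genes on a list, 2 on each side of each margin, and the 10 widest WT differences each way per direction; any other is said to be picked after its values were seen. Genes without a symbol are not named. A few genes that the rule would name are not reported here. Promoters are the first RefSeq start listed for a symbol (GRCh38.p14). Alternatives were other scalings, level minimums and margins, DESeq2 1.42.0, no low-count filter, a fit of Control and WT alone, a replicate block and leaving out each library.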

Additional observations from a re-analysis of the deposited data

How the results depend on the processing

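The number of genes above both was 135, 141 and 133 with TMM, upper-quartile and DESeq2 scaling (128, 133 and 127 of them among the 138), and of genes below both 111, 102 and 114 (101, 99 and 100 among the 110). Scalings moved the median of all genes by under 0.1 (log2). A minimum of 1 CPM gave 268 above and 160 below, 20 CPM gave 62 and 65, and a margin of 1.5 gave 54 and 13. Leaving out a library gave 150 to 191 above and 124 to 248 below, with 248 below without IDRmut replicate 1 and 177 without IDRmut replicate 2, where the extreme is taken over fewer libraries. DESeq2 called fewer genes: 1799 higher and 1850 lower for WT against Control, 1541 and 1749 for IDRmut against Control, and 1183 and 1335 for IDRmut against WT. Leaving out a library gave 2017 to 3390 higher and 1944 to 3683 lower for WT against Control (1944 without Control replicate 1), 1643 to 2623 and 1808 to 2899 for IDRmut against Control (1643 and 1697 higher without Control replicate 1 and 2), and 1218 to 2306 and 1372 to 2455 for IDRmut against WT (1334 and 1218 higher without WT replicate 1 and 2, and 1372 lower without WT replicate 2). For WT against Control within the upper genes, leaving out a library gave 35 to 50 called higher and 25 to 38 lower, and within the lower genes 17 to 24 higher and 28 to 45 lower. DESeq2 called 26 of the lower genes lower. A group left with 1 library was assumed to vary like the others. Of the 143 of the 248 genes called in WT against Control, 87 kept call and direction in every alternative, 86 of the 105 uncalled stayed uncalled, and 0 changed direction in a called value. The causes were not tested.

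Same-numbered libraries did not deviate together (correlations of -0.02, -0.05 and -0.13 over genes), so the numbers are not taken as pairs. With the replicate block, WT against Control had 2734 genes higher and 2706 lower, IDRmut against Control 2390 and 2446, and IDRmut against WT 1830 and 2136. Among the upper genes the block gave 44 higher and 34 lower for WT against Control, and among the lower genes 21 and 40.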
